A study of Mus musculus with 18 samples.

Results

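Gene expression was compared between NTY and sham in mouse oocytes taken from primary follicles, in 6 of the 18 libraries of the series. The 6 were chosen by their labels, which give oocytes from primary follicles as the cell type, sham or NTY as the treatment and a replicate number from 1 to 3, so that each group holds 3 libraries and all 53715 genes of the count table were considered. The other 12 libraries are oocytes from primordial follicles and MII oocytes under the same labels, 3 in each group.

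All mice are labelled as the cross C57Bl/6j x CBA/J, and their age is not given in the sources used here. Neither the labels nor the protocols say what NTY stands for, which dose or time was used, or how the sham group was handled. By the labelled protocol the oocytes were cut from tissue by laser capture, RNA from the caps was pooled for each oocyte stage during extraction, cDNA was amplified with the Ovation PICO system and libraries were made with the TruSeq RNA Access kit, which captures coding RNA. No label says that replicates came from separate animals, so the p-values measure the spread between these libraries, which may be technical. The codes of NTY replicates 2 and 3 (2E and 2E2) are alike. In this pair 4603 genes had 10 or more counts in one library only, against 4651 for replicates 1 and 3 and 4944 for replicates 1 and 2. Both libraries of the pair held 3932 genes at that level, against 5041 and 3939, so these measures did not set the pair apart. Replicates 2 and 3 were kept as separate samples, and the 2 libraries were summed as an alternative.

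A primary follicle holds an oocyte that has begun to grow, surrounded by a single layer of cuboidal granulosa cells. The oocyte at this stage builds up its zona pellucida, secretes growth factors such as GDF9 and BMP15 that act on the granulosa cells, and stores RNA and protein for later use. Its exit from dormancy is governed by KIT ligand from granulosa cells, PI3K and AKT signalling in the oocyte and the exclusion of FOXO3 from the nucleus.

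Depth was even. The total count per library was 23930436, 22572216 and 23410138 in sham and 23698083, 23268600 and 25286457 in NTY, so that 3 counts, taken here as the level below which a gene cannot be told from 0, corresponded to 0.119 to 0.133 CPM (the share of a library's counts on a common scale) before scaling between libraries. The 10 genes with the most counts held between 6.28% and 10.8% of a library, the highest share being that of NTY replicate 1.

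Fewer genes were detected in the NTY libraries. At least 1 count was found for 12955, 10565 and 13755 genes in sham and for 10255, 7474 and 9611 genes in NTY. Every NTY library lay below every sham library, and the means were 12425 ± 1660 (SD, n = 3) and 9113 ± 1456 (SD, n = 3), a difference of -3312 genes. The exact two-sided permutation test gave p = 0.1, the smallest value that 3 libraries against 3 allow. With at least 10 counts the means were 9171 ± 1475 and 6670 ± 1219 (SD, n = 3), sham replicate 2 lay below the highest NTY library, and the exact permutation p was 0.2. Genes with 1000 or more counts numbered 3764, 3156 and 3726 in sham and 3029, 2132 and 3014 in NTY, so that the NTY libraries were also lower among abundant transcripts. NTY replicate 2 had the fewest genes at each of these levels.

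**Figure D1:**
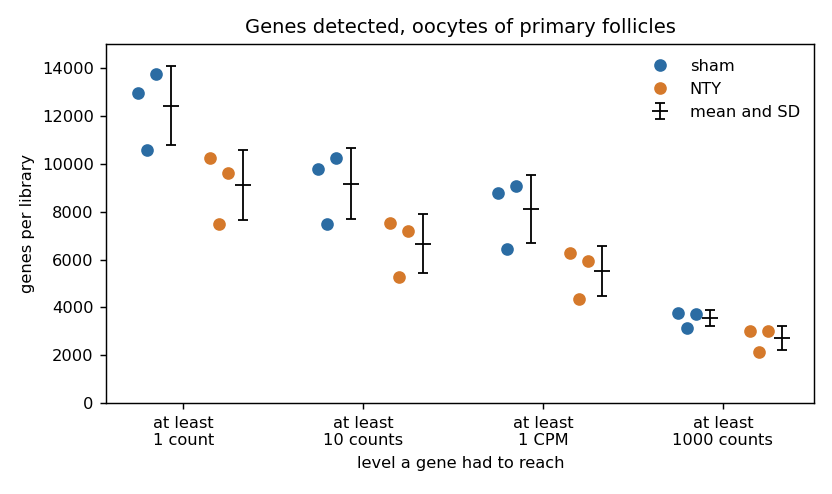
Number of genes per library (y axis) that reached at least 1 count, 10 counts, 1 CPM or 1000 counts (x axis) in oocytes of primary follicles; points are the 3 sham and 3 NTY libraries and the bars give mean and SD. At 1 count the NTY libraries lie between 7474 and 10255 genes and the sham libraries between 10565 and 13755.

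Oocyte transcripts were present in all 6 libraries, but not evenly. Gdf9, which encodes the growth factor named above, had 2081, 1057 and 2206 counts in sham and 34, 974 and 2479 in NTY. Zp3, a zona pellucida glycoprotein and sperm receptor, had 541, 599 and 776 counts in sham and 61, 191 and 643 in NTY. NTY replicate 1 was the lowest library for both, and it was also the lowest for Zar1, a maternal factor needed after fertilization, with 19 counts against 659 to 1070 in the other 5. It had 39 counts of Ybx2, a germ cell RNA-binding protein, against 9950, 11092 and 10410 in sham and 65345 and 43789 in NTY replicates 2 and 3. Summed over 22 genes of oocyte growth, the level was 294, 352 and 297 CPM in sham and 110, 233 and 435 CPM in NTY, with NTY replicate 1 lowest and NTY replicate 3 highest. Dazl, another germ cell RNA-binding protein, was at 4 counts in sham replicate 2 against 2723 to 8204 elsewhere, and Ddx4, the germ cell helicase, was at 4 counts in NTY replicate 2 against 183 to 9137 elsewhere. Of the 22 genes of oocyte growth and 13 of the 14 early oocyte genes that were tested, 0 had an unadjusted p under 0.05 in edgeR's test, described below, beside 0.722% of all genes tested with higher and 7.43% with lower values. Single libraries of either group lacked a defining oocyte transcript that the others held.

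Transcripts of other ovarian cells were abundant as well. Wt1, a transcription factor of granulosa cells, had 9359, 22896 and 13158 counts in sham and 18681, 44048 and 3998 in NTY. Col1a1, a fibrillar collagen of stroma, had 25879, 68819 and 23588 counts in sham and 345128, 39828 and 33075 in NTY. In TPM, the deposited unit that allows for gene length, Col1a1 stood at 447 to 1387 in sham and 629 to 6616 in NTY, whereas Zp3 stood at 59.2 to 73.0 and 5.80 to 60.6. The stroma and theca list of 12 genes summed to 2021, 5593 and 2170 CPM in sham and 19532, 6851 and 2644 CPM in NTY, and the smooth muscle list of 6 genes to 259, 129 and 70.8 against 3024, 2160 and 73.6 CPM. The groups overlapped for both lists, for the second because NTY replicate 3 lay at the level of sham. The granulosa list of 16 genes summed to 1460, 1846 and 2618 CPM in sham and 2387, 4234 and 1087 CPM in NTY. Markers of surface epithelium (6 genes) ranged from 50.5 to 2685 CPM in sham and from 0.226 to 421 CPM in NTY, with Krt19, an epithelial keratin, at 41859 counts in sham replicate 2 alone against 2038 or fewer elsewhere. Endothelial markers (8 genes) summed to at most 42.3 CPM and immune and blood markers (10 genes) to at most 38 CPM in any library, with Cldn5 and Emcn, Ptprc and Cd3e at 0 in all 6. The part of these cells in the comparisons that follow was not tested, and in bulk libraries fewer cells of a type cannot be told apart from less RNA per cell.

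**Figure D2:**
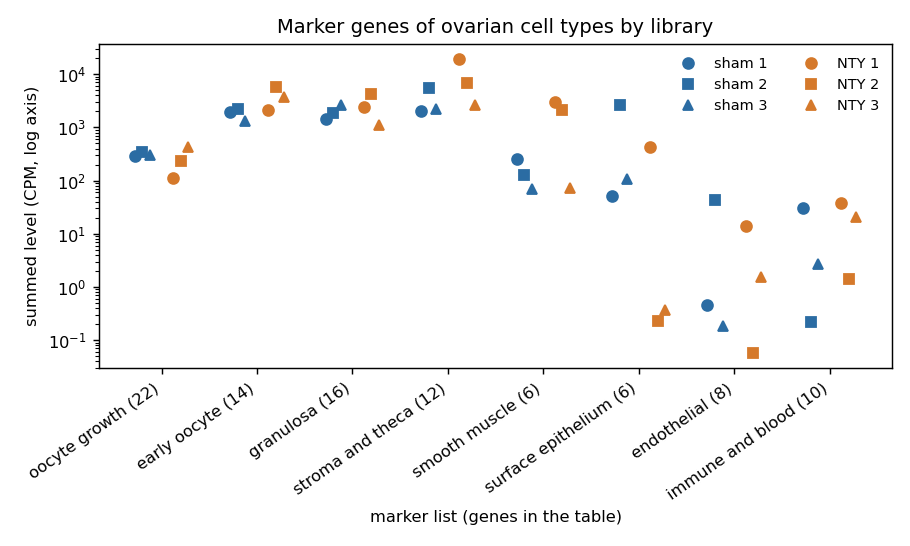
Summed level in CPM (y axis, log scale) of 8 lists of cell type markers (x axis, number of genes in brackets) in each of the 6 libraries; colour gives the group and shape the replicate. NTY replicate 1 is lowest for oocyte growth (110 CPM) and highest for stroma and theca (19532 CPM), and surface epithelium markers range from 0.226 to 2685 CPM.

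The count test was made over 10522 genes with enough counts, in a fit that used the 12 microdissected libraries. With edgeR's quasi-likelihood test, 0 genes (0%) had a Benjamini-Hochberg adjusted p under 0.05, and the smallest adjusted p was 0.5. An unadjusted p under 0.05 was found for 76 genes with higher values in NTY (0.722% of the genes tested) and for 782 with lower values (7.43%). DESeq2 called 693 genes, 77 higher and 616 lower, limma with voom and quality weights 67, of which 2 were higher, and limma on log2(TPM + 1) 3, all lower. The spread between libraries was wide, with a common dispersion of 3.59. In all that follows no gene passed the main test, and folds are given as measured values.

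A second description needs no model. The 3 NTY libraries all lay above the 3 sham libraries in CPM for 239 genes (2.27% of those tested) and all below them for 1221 genes (11.6%). With another scaling (RLE) these numbers were 333 and 1102, and with plain library totals 130 and 1454, so genes with lower values were the larger class under each scaling. They were also the larger class when any of the 6 libraries was left out, with 1509 to 2375 lower and 363 to 803 higher. Leaving out a library can only keep or raise both numbers.

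Among the genes with lower values were some that no NTY library held. In all 3 sham libraries 4061 genes reached 100 counts, and 66 of them (1.63%) had 3 counts or fewer in all 3 NTY libraries, and 32 of these were at 0 in all 3. The converse was found for 0 of the 1699 genes that reached 100 counts in all 3 NTY libraries. At a minimum of 10 counts the numbers were 197 of 6108 genes (3.23%) and 1 of 3246 (0.0308%), the 1 gene being Mtmr12, a pseudophosphatase of the myotubularin family, with 1, 3 and 3 counts in sham and 45, 19 and 26 in NTY. The 66 genes and Mtmr12 were picked out by these very values, so the counts describe the libraries and support no test. Absence from single libraries of a group was also common, more so in NTY. Of genes with 1000 or more counts in any library of a group, some had 3 or fewer in another library of that group. These were 758 of 5302 genes (14.3%) in sham and 2012 of 4971 (40.5%) in NTY. The part of such absences in the 66 genes was not tested. Without NTY replicate 1 there were 235 genes in place of 66, and without NTY replicate 2, sham replicate 1, sham replicate 3, NTY replicate 3 and sham replicate 2 there were 103, 104, 119, 206 and 233. A rule set on every library can only keep or raise this number when a library is left out. In oocytes from primordial follicles the same rule gave 2 of 1713 genes held by sham alone and 17 of 1811 held by NTY alone.

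**Figure D3:**
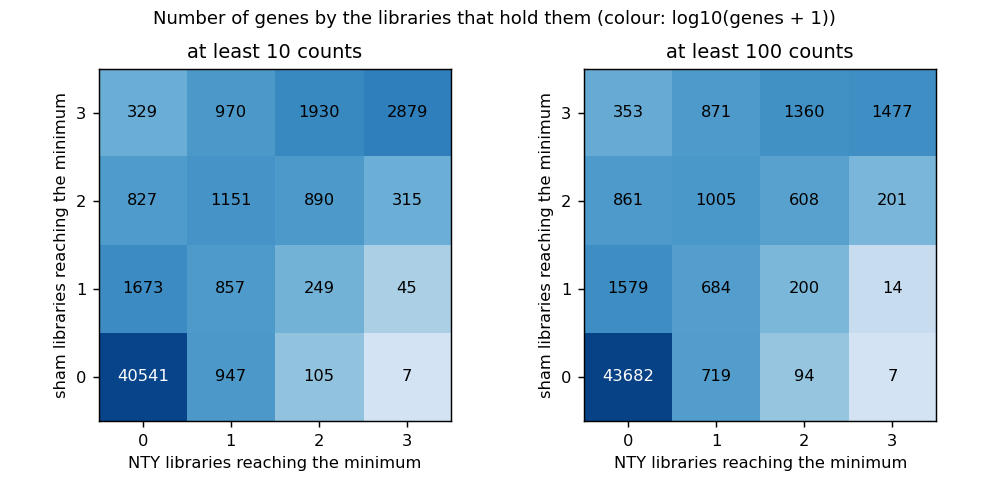
Number of genes (in each cell) by how many sham libraries (y axis) and NTY libraries (x axis) reached at least 10 counts (left) or 100 counts (right); colour gives log10(genes + 1). At 100 counts 353 genes reached the minimum in all 3 sham and no NTY library, 7 in all 3 NTY and no sham library, and 1477 in all 6.

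Genes held by sham alone were mostly ordinary coding genes. Protein-coding genes made up 64 of the 66, against 3992 of the 4061. Their median transcript length was 2883 bases against 4029, their median GC content 49.6% against 49.5%, and the median of their mean sham count 994 against 2347, so they were shorter and less abundant than the set they came from. In the libraries of primordial follicles, which share the library method, 18, 22 and 22 of the 66 reached 100 counts in sham and 23, 44 and 5 in NTY. The percentages over all 4061 genes were higher in each of these 6 libraries, from 43.1% to 89.1%, against 7.58% to 66.7% for the 66.

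The genes of this class with the highest sham levels had varied functions. Smarcd3, a subunit of SWI/SNF chromatin remodelling complexes, had 2070, 7203 and 2727 counts in sham and 0, 1 and 1 in NTY. Pdcd10, a protein of cell junction and vascular signalling, had 1718, 6864 and 1327 counts in sham and 1, 2 and 0 in NTY. Pank1, a pantothenate kinase at the start of coenzyme A synthesis, had 5343, 4311 and 766 counts in sham and 0, 2 and 0 in NTY. Across these genes no sham library held fewer than 766 counts and no NTY library more than 2. Runx1t1, a transcriptional corepressor, had 2349, 4333 and 3513 counts against 1, 1 and 3. Cpa1, a carboxypeptidase known from the pancreas, had 1483, 6453 and 1215 counts against 0, 0 and 1. Memo1, which takes part in cell motility, had 3497, 2265 and 4688 counts against 3, 0 and 0.

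Further members of the class include Timm13 (700, 731 and 307 counts against 0, 0 and 0) and Timm22 (448, 721 and 676 against 0, 0 and 0), which bring proteins into the inner membrane of mitochondria. A further one, Timm10b, had 3188, 483 and 2823 counts against 0, 1 and 1, but its counts are nearly the same as those of the overlapping gene model Gm45799, so the reads cannot be given to one of them. Gins1, part of the replicative helicase, had 1102, 1516 and 152 counts against 0, 0 and 0, and Kif18b, a mitotic kinesin, 465, 1952 and 558 against 0, 0 and 0. Fgf8, a growth factor that mouse oocytes are known to secrete, had 1352, 177 and 647 counts against 1, 0 and 0. These 6 were chosen after their values were seen.

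Among the 12 coding genes with the smallest p and lower values in NTY, 4 take part in transcription or chromatin. Taf10, a subunit of TFIID and SAGA, had 4752, 1557 and 4753 counts in sham and 3, 1 and 3 in NTY (unadjusted p = 0.00209, adjusted p = 0.5, edgeR). Ruvbl2, an ATPase of chromatin remodelling and snoRNP assembly, had 1622, 1395 and 1315 counts in sham and 0 in all 3 NTY libraries, so that sham was at least 354-fold higher than 3 counts per library would give. Its sham values were among the most even of the genes described here. Mbd3, a subunit of the NuRD complex, had 3453, 15554 and 3440 counts in sham and 14, 0 and 16 in NTY, a log2 fold change of -9.41 ± 2.86 (SE). Setbp1, a SET-binding nuclear protein, had 433, 3709 and 351 counts in sham and 1, 1 and 0 in NTY, with the smallest unadjusted p of all genes named (0.000339, adjusted p = 0.5, edgeR). Taf10 shares exons with Ilk, and Ruvbl2 with Gys1 and Lhb, on opposite strands. Whether the counting used strand is not given in the sources used here, so reads of such neighbours cannot be told apart.

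Protein synthesis and RNA processing supplied further ones. Eif2s1, the alpha subunit of the initiation factor eIF2 on which stress kinases act, had 5335, 11262 and 7315 counts in sham and 0, 0 and 4 in NTY (log2 fold change -12.21 ± 3.79 SE, unadjusted p = 0.00233, adjusted p = 0.5, edgeR). Its exons lie on chromosome 12 between 78861819 and 78887010 (GRCm38). The lowest sham library of Eif2s1 thus held 5335 counts and the highest NTY library 4. Ddx39, an RNA helicase of mRNA export, had 1038, 414 and 2571 counts in sham and 0 in all NTY libraries, at least 302-fold higher in sham than 3 counts per library. It shares exons with Adgre5 on the opposite strand.

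The remaining genes of these 12 were a proteasome subunit, described below, 2 enzymes or transporters, a ubiquitin ligase and 2 gene models. Camkmt, the methyltransferase of calmodulin, had 300, 14366 and 1243 counts in sham and 0 in NTY, at least 1569-fold higher in sham than 3 counts per library. Slc22a5, the carnitine transporter, had 2338, 1058 and 995 counts against 0, 0 and 2. Rnf19a, an E3 ubiquitin ligase, had 2402, 5146 and 1305 counts against 3, 0 and 0. The sham libraries of Camkmt differed by more than an order of magnitude, whereas those of Slc22a5 and Rnf19a lay closer together. Gm49318, with 1710, 20805 and 3036 counts against 0, 0 and 1, overlaps exons of Elavl3 and Zfp653. Gm49450, with 13859, 45118 and 25883 counts against 754, 7 and 131, overlaps exons of the alpha tubulin genes Tuba1a and Tuba1b, so what these models count is uncertain.

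**Figure D4:**
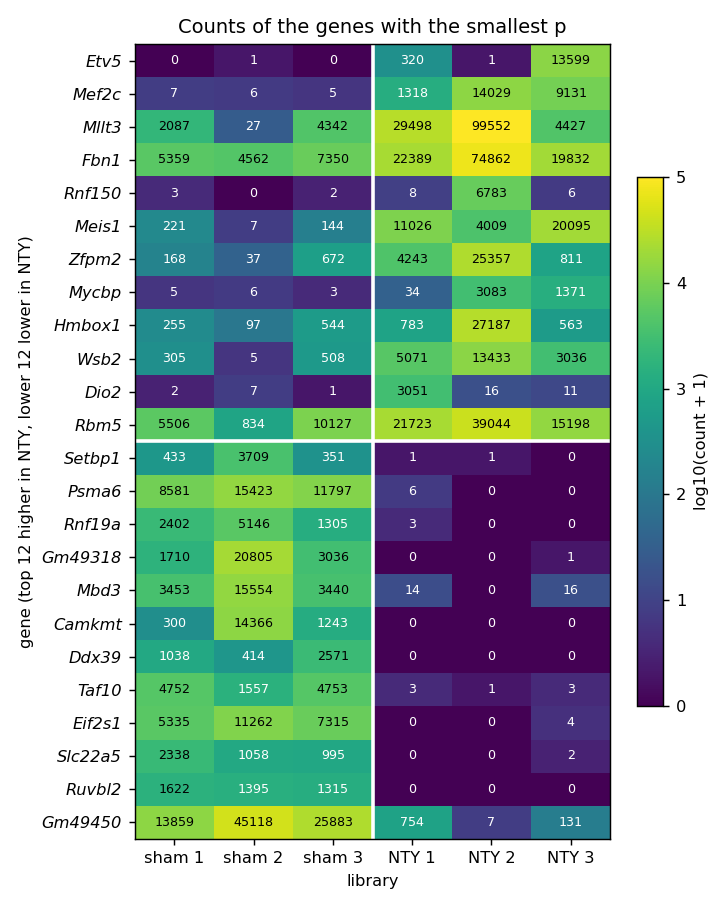
Counts (printed in each cell, colour log10(count + 1)) of the 12 genes with the smallest p and higher values in NTY (rows above the line) and the 12 with lower values (rows below it) in the 3 sham and 3 NTY libraries (columns). Among the lower genes the NTY libraries hold 16 counts or fewer except for Gm49450, while among the higher genes several rest on 1 NTY library, such as Rnf150 with 6783 counts in NTY replicate 2.

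Of the 12 coding genes with the smallest p and higher values in NTY, 5 encode transcription factors or their cofactors. Mef2c, a MADS-box factor of muscle, neural and endothelial development, had 7, 6 and 5 counts in sham and 1318, 14029 and 9131 in NTY. Its mean level was 0.211 ± 0.054 CPM in sham and 410 ± 369 CPM in NTY (SD, n = 3), a ratio of 1946, with an unadjusted p of 0.00335 and an adjusted p of 0.5 (edgeR). Mef2c lies on chromosome 13 from 83504034 to 83667080 (GRCm38) and was the only one of the 12 with sham below 10 counts and NTY above 1000 counts in every library. Meis1, a TALE homeobox factor, had 221, 7 and 144 counts in sham and 11026, 4009 and 20095 in NTY, a ratio of mean CPM of 133 (log2 fold change 7.06 ± 2.89 SE, unadjusted p = 0.0185, adjusted p = 0.5, edgeR). Part of its exons is shared with Gm16140 on the opposite strand and Gm37818 on the same strand. Zfpm2, the GATA cofactor FOG2, had 168, 37 and 672 counts in sham and 4243, 25357 and 811 in NTY. Hmbox1, a homeobox protein that binds telomeric repeats, had 255, 97 and 544 counts against 783, 27187 and 563. For both of these NTY replicate 2 held most of the counts and NTY replicate 3 lay close to sham replicate 3. Etv5, an ETS factor, had 0, 1 and 0 counts in sham and 320, 1 and 13599 in NTY. Its groups were separated by less than 3 counts, because NTY replicate 2 was as low as sham.

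Genes of other kinds made up the rest. Mllt3, a chromatin reader of elongation complexes, had 2087, 27 and 4342 counts in sham and 29498, 99552 and 4427 in NTY (log2 fold change 5.16 ± 1.80 SE). Wsb2, a SOCS-box substrate receptor, had 305, 5 and 508 counts against 5071, 13433 and 3036, and shares exons with Rfc5 on the opposite strand. Mycbp, a small Myc-binding protein, had 5, 6 and 3 counts against 34, 3083 and 1371, and overlaps Gm12905 and Gm26606 on the opposite strand. In each of these the lowest NTY library was above the highest sham library, but for Mllt3 and Mycbp by less than 100 counts. Rnf150, a RING finger protein, had 3, 0 and 2 counts against 8, 6783 and 6, and Dio2, the deiodinase that activates thyroid hormone, 2, 7 and 1 against 3051, 16 and 11. Both overlap antisense gene models, Gm45449 and Gm26512. Their NTY values rest on 1 library each, replicate 2 for Rnf150 and replicate 1 for Dio2.

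A narrower set had counts everywhere. There were 1477 genes with at least 100 counts in each of the 6 libraries, so that none was absent from a library. In this set the direction was the other way, with 129 genes above and 44 below without overlap and a median log2 fold change of 0.56 against -0.10 over all genes tested. The set was chosen on these counts, and requiring 100 counts in every library removes genes that NTY did not hold. Its median, like that of all genes, moves with the scaling, from -0.10 to 0.19 with RLE and to -0.56 with plain library totals for all genes tested. Of the 1477 genes, 1 had an unadjusted p under 0.05 with lower values.

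That gene was Zfp644, a zinc finger protein, with 8394, 28495 and 3859 counts in sham and 458, 1097 and 493 in NTY (log2 fold change -3.97 ± 1.49 SE, unadjusted p = 0.0105, adjusted p = 0.5, edgeR). Reads of Zfp644 may include those of Gm28039, which shares exons with it. Son, a large splicing protein of nuclear speckles, had 112114, 165318 and 110368 counts in sham and 15242, 34727 and 38986 in NTY, 3.3-fold higher in sham by mean CPM (log2 fold change -1.72 ± 0.92 SE, adjusted p = 0.685, edgeR). The counts of Son were the highest of the genes named here with lower NTY values, and its exons overlap those of Donson on the opposite strand. Eif3a, the largest subunit of eIF3, had 14463, 15416 and 19807 counts against 3730, 634 and 3998. Tpp2, a peptidase that acts after the proteasome, had 6887, 15543 and 2388 counts against 184, 270 and 632. Rtn4, the reticulon Nogo of the endoplasmic reticulum, had 9136, 6752 and 3137 counts against 1216, 376 and 790. Synpo, an actin-binding protein, had 3836, 2740 and 14352 counts against 277, 383 and 1243. All 6 of these genes were lower in 3 of 3 NTY libraries than in any sham library.

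The 6 genes of this set with the smallest p and higher values in NTY were Fbn1, Ctnnb1, Fstl1, Rbm5, Nfyc and 1810013L24Rik. Fbn1, the microfibril protein fibrillin 1, had 5359, 4562 and 7350 counts in sham and 22389, 74862 and 19832 in NTY, a 10.3-fold ratio of mean CPM (log2 fold change 3.36 ± 1.29 SE, unadjusted p = 0.0125, adjusted p = 0.5, edgeR). Sham values of Fbn1 were close together, and each NTY library lay well above them. Ctnnb1, beta-catenin of adherens junctions and Wnt signalling, had 9008, 2141 and 12205 counts against 21744, 46658 and 35375 (ratio 6.78). Fstl1, a secreted follistatin-like glycoprotein, had 898, 212 and 1647 counts against 8373, 17187 and 1689, with NTY replicate 3 level with sham replicate 3. Rbm5, a splicing regulator, had 5506, 834 and 10127 counts against 21723, 39044 and 15198 (ratio 7.35). Nfyc, a subunit of the CCAAT-binding factor NF-Y, had 3749, 2672 and 3745 counts against 10886, 40706 and 6844. The gene 1810013L24Rik had 6987, 2940 and 9919 counts against 10745, 48141 and 33630. Fbn1 is known as a gene of connective tissue and was highest in NTY replicate 2, while the summed stroma and theca list was highest in NTY replicate 1. Single genes of that list were highest in different libraries. The part of stroma cells in the value of Fbn1 was not tested.

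Several proteasome subunits, parts of the protease that degrades ubiquitin-tagged proteins, were at or near 0 in NTY. The list holds the 39 genes with Psma, Psmb, Psmc or Psmd names, and not all encode subunits, Psmd10 being an assembly chaperone. Of these genes 34 were tested. At an unadjusted p under 0.05, 4 of the 34 (11.8%) had lower values and 0 higher values, beside 7.43% lower over all genes. Without overlap 6 genes of the list (17.6%) lay below sham and 1 (2.94%) above, beside 11.6% and 2.27%, and with RLE 5 (14.7%) and 4 (11.8%), beside 10.5% and 3.16%. With plain library totals 8 (23.5%) lay below and 0 above, beside 13.8% and 1.24%. The difference between the list and all genes was not tested. Psma6, an alpha ring subunit, had 8581, 15423 and 11797 counts in sham and 6, 0 and 0 in NTY (log2 fold change -12.14 ± 3.53 SE, unadjusted p = 0.00124, adjusted p = 0.5, edgeR). Psmd7, a subunit of the regulatory lid, had 6538, 10605 and 6040 counts against 4, 1 and 7, and Psmb3, a beta ring subunit, 2408, 5569 and 1546 against 0, 0 and 1. Psmd10, the assembly chaperone gankyrin, had 565, 134 and 76 counts against 0 in all 3 NTY libraries. Other subunits of the same particle overlapped between the groups or lay above sham. Psma7 had 583, 30 and 3905 counts against 2927, 7326 and 3409 and lay above sham in CPM, though not in raw counts. Psmb1 had 425, 232 and 619 against 495, 218 and 634, and Psmc3, an ATPase of the base, 3977, 822 and 7752 against 4909, 12179 and 11903. Over the 34 genes the median log2 fold change was -0.22, and it turned positive with RLE (0.12). The summed level of the 39 genes was 3683, 6114 and 4846 CPM in sham and 6024, 6444 and 3977 CPM in NTY, which overlap. Leaving out a library gave from 4 to 7 genes of the list with lower values at an unadjusted p under 0.05, the 7 being without NTY replicate 1.

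Cytosolic ribosomal proteins were the family best held by the libraries, with 75 of 86 genes at 10 or more counts in all 6. Of the 83 tested, 9 (10.8%) lay above sham without overlap and 2 (2.41%) below, beside 2.27% and 11.6% over all genes, but with plain library totals the numbers were 3 and 10, so no direction can be given for the family. Rpl23a had 25700, 27152 and 50496 counts in sham and 34982, 29542 and 67987 in NTY, and Rps4x 55027, 44720 and 69830 against 83783, 47841 and 59839. Both were within a small factor across the 6 libraries, unlike the genes above. Rpl22l1, a paralog of Rpl22, had 559, 0 and 2594 counts against 1, 0 and 0 and was the 1 member with an unadjusted p under 0.05 (0.0202, adjusted p = 0.5, edgeR). Rpl14 (3143, 2879 and 2676 against 1320, 463 and 85) and Rpl22 (752, 706 and 1173 against 148, 0 and 19) were the 2 below sham. Ribosomal protein genes have many processed pseudogenes, and how reads matching several copies were counted is not given in the sources used here.

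Translation factors showed both directions. Of 26 initiation and elongation factors tested 0 had an unadjusted p under 0.05, and 2 (7.69%) lay above sham and 2 (7.69%) below, beside 2.27% and 11.6% over all genes. With RLE 5 (19.2%) lay above and 2 (7.69%) below, beside 3.16% and 10.5% over all genes. With plain library totals 1 (3.85%) lay above and 2 (7.69%) below, beside 1.24% and 13.8%. Eif4g2, which drives cap-independent initiation, had 159653, 121517 and 136612 counts in sham and 191806, 144134 and 145022 in NTY, and Eif4g1, the scaffold of eIF4F, 7629, 5988 and 8228 against 9066, 21479 and 14579. Both lay above sham in CPM, though Eif4g2 did not in raw counts. Eif3a, given above, and Eif3e (2891, 5819 and 3864 against 917, 1 and 2) were the 2 below. Summed over the 26 genes the level was 18049, 24181 and 16853 CPM in sham and 31646, 30582 and 26448 CPM in NTY. These sums did not overlap, and other scalings were not summed. Of 24 chaperones tested, also with 0 at an unadjusted p under 0.05, 1 (4.17%) lay above and 1 (4.17%) below. Above lay the chaperonin subunit Tcp1 (11229, 12627 and 12779 against 20164, 22211 and 18243). Its partner Cct2 (8232, 4911 and 6442 against 1215, 1622 and 3973) lay below. For chaperones RLE gave 3 (12.5%) above and 1 (4.17%) below, and plain library totals 1 (4.17%) and 2 (8.33%). In the list of the unfolded protein response 20 genes were tested, and 2 (10%) lay below sham and 1 (5%) above, beside 11.6% and 2.27%. Those below were Eif2s1 and Edem1 (500, 955 and 1107 against 11, 26 and 0). The calnexin gene Canx (26759, 13956 and 19105 against 22562, 19603 and 39211) lay above in CPM, though not in raw counts. The 21 genes of this list summed to 4637, 5894 and 5565 CPM in sham and 9581, 6254 and 6471 CPM in NTY, without overlap. For the 25 genes of the chaperone list the sums overlapped.

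**Figure D5:**
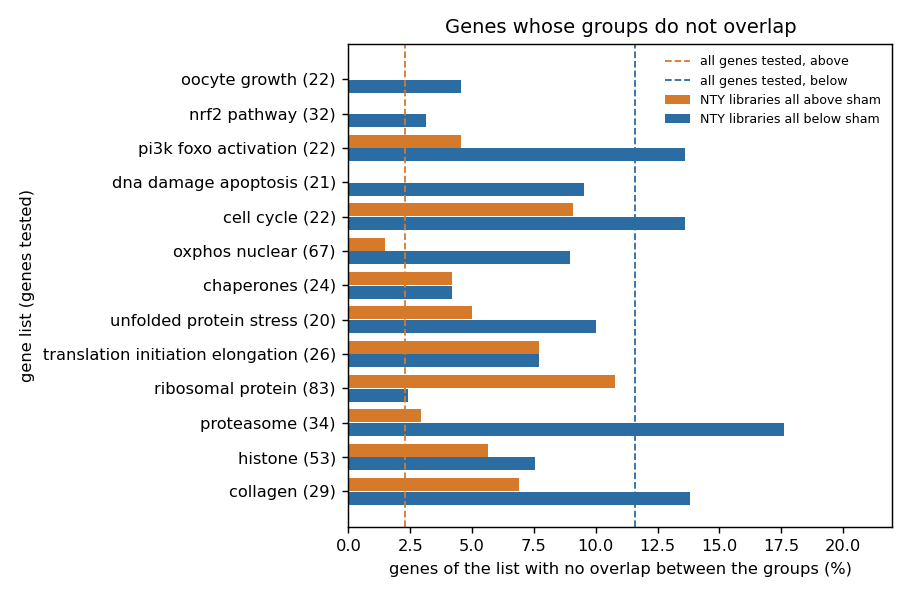
Percentage of tested genes in each list of 20 or more tested genes (y axis, number tested in brackets) whose 3 NTY libraries all lay above (orange bars) or all below (blue bars) the 3 sham libraries in CPM (x axis); dashed lines give the percentages over all genes tested, 2.27% above and 11.6% below. Proteasome genes have the longest blue bar (17.6%) and ribosomal proteins the longest orange bar (10.8%), which shrank to 3.61% with plain library totals.

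The growth protocol of the samples names an NRF study, and the genes of the NRF2 pathway, which controls the response to oxidants, were therefore listed. Of 36 genes 32 were tested, and 0 had an unadjusted p under 0.05 in either direction with edgeR, beside 0.722% higher and 7.43% lower over all genes. Nfe2l2, which encodes NRF2, had 638, 210 and 730 counts in sham and 2120, 2 and 21 in NTY, and Keap1, its inhibitor, 31, 234 and 565 against 0, 21 and 537. Both overlapped widely between the groups. Nqo1, a classical target, was at 0 counts in all 6 libraries. The target Hmox1, heme oxygenase 1, had 12, 9 and 418 counts against 466, 0 and 360, Gclm, a subunit of the enzyme of glutathione synthesis, 189, 4556 and 2741 against 35, 8188 and 2074, and Txnrd1, thioredoxin reductase, 116, 41 and 1238 against 3207, 789 and 26. Without overlap 1 gene (3.12%) lay below sham, beside 11.6%, and 4 (12.5%) with plain library totals, beside 13.8%. The 1 gene was Pgd, of the pentose phosphate pathway, with 754, 2200 and 270 counts in sham and 95, 36 and 7 in NTY (unadjusted p = 0.182, adjusted p = 0.898, edgeR). The median log2 fold change of the list was 0.29, and -0.19 with plain library totals. The standard errors of these log2 fold changes ran from 1.05 to 3.55, so differences of this size were not detectable between these libraries.

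Genes of follicle activation were measured at high counts. Foxo3 had 19846, 18799 and 18482 counts in sham and 19491, 30334 and 26886 in NTY, among the most even values of any gene here, and its log2 fold change was 0.89 ± 1.07 (SE, unadjusted p = 0.412, edgeR). NTY lay above sham in CPM without overlap, though not in raw counts. Tsc1, which with TSC2 restrains mTORC1, had 4401, 11844 and 2680 counts against 15, 104 and 496. Loss of Tsc1 in oocytes is known to release follicles from dormancy, and it lay below sham in 3 of 3 libraries (unadjusted p = 0.0918, adjusted p = 0.754, edgeR). Kitl, the KIT ligand of granulosa cells, had 400, 3266 and 2295 counts against 0, 24 and 139, while its receptor Kit in the oocyte had 7123, 88 and 1191 against 10734, 146 and 1677. Of the 22 genes of this list 3 (13.6%) lay below and 1 (4.55%) above, beside 11.6% and 2.27% over all genes, and 0 had an unadjusted p under 0.05.

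The granulosa list held genes on both sides. Of 16 genes 14 were tested, and 3 (21.4%) had an unadjusted p under 0.05 with lower values and 0 with higher values, beside 7.43% and 0.722% over all genes. They were Fst, follistatin (3252, 0 and 9134 against 1, 6 and 0), Inhba (0, 0 and 3090 against 0, 0 and 0) and Inhbb (5, 4 and 2786 against 0, 0 and 0), which encode an antagonist of activin and subunits of activin itself. Inhba and Inhbb rest on sham replicate 3 alone, and without that library 1 gene of the list had an unadjusted p under 0.05. Inha, the inhibin alpha subunit, had 6712, 2041 and 18330 counts against 2886, 5950 and 5267, and the granulosa transcription factor Foxl2 had 3568, 8056 and 3602 against 18125, 9483 and 1265. Fshr, the FSH receptor, was at 0 in all 6 libraries. Of the gap junction genes, Gja1 was at 18047, 4509 and 26724 counts against 11054, 6854 and 14023 and the oocyte connexin Gja4 was at 6821, 3604 and 4126 against 4945, 10 and 718.

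Collagen genes lay on both sides. Of 29 collagens tested, 3 (10.3%) had an unadjusted p under 0.05 with lower values, beside 7.43% over all genes. They were Col20a1 (70, 0 and 13 counts against 0 in all 3), Col9a2 (156, 0 and 17 against 0) and Col9a3 (224, 1 and 148 against 0), which were all sparse in sham replicate 2 as well. Col1a1 was the 1 with an unadjusted p under 0.05 and higher values, beside 0.722% (log2 fold change 2.08 ± 0.99 SE, unadjusted p = 0.0406, adjusted p = 0.577, edgeR), and its counts given above show that NTY replicate 1 set this value and that NTY replicates 2 and 3 lay within the range of sham. Without overlap 2 collagens (6.9%) lay above sham and 4 (13.8%) below, beside 2.27% and 11.6%. For collagens plain library totals gave 1 (3.45%) above and 4 (13.8%) below, beside 1.24% and 13.8%. Col6a3 (3464, 1020 and 731 against 7536, 10165 and 3377 counts) and Col4a2 of the basement membrane (403, 343 and 100 against 2259, 2457 and 537) lay above, Col6a3 in CPM though not in raw counts. Below lay Col6a6 (441, 319 and 1164 against 0, 2 and 70), Col9a3, Col6a2, which joins Col6a3 in collagen VI (2066, 21161 and 1906 against 820, 393 and 62), and Col11a1 (1924, 1374 and 1534 against 55, 0 and 0). The differences of Col6a2 and Col6a3, chains of the same trimer, thus had opposite signs. Smooth muscle actin Acta2 had 2596, 2954 and 1504 counts in sham and 61166, 38074 and 2 in NTY, so that NTY held both the highest and the lowest library.

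Genes of mitochondrial respiration showed few separations. Of 67 nuclear-encoded subunits tested 0 had an unadjusted p under 0.05, 6 (8.96%) lay below sham and 1 (1.49%) above, beside 11.6% and 2.27% over all genes. Atp5b, the catalytic beta subunit of ATP synthase, had 18594, 15694 and 15498 counts against 10240, 497 and 9993, and Uqcrc2, a core subunit of complex III, 2044, 780 and 938 against 55, 76 and 182. Ndufa13 of complex I was the 1 above, at 27, 3 and 60 counts against 108, 575 and 96. Of the 13 protein genes of the mitochondrial genome 9 were tested and none separated the groups. The most abundant, mt-Co1, had 312, 106 and 978 counts against 527, 135 and 269, and mt-Co2 and mt-Co3 were listed at 0 in all 6 libraries.

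Replication and histone genes were divided as well. Among 22 cell cycle genes tested, 0 had an unadjusted p under 0.05, beside 0.722% higher and 7.43% lower over all genes. Without overlap 2 (9.09%) lay above and 3 (13.6%) below, beside 2.27% and 11.6% over all genes. Plain library totals gave 1 (4.55%) above and 4 (18.2%) below, beside 1.24% and 13.8%. Subunits of the MCM helicase lay on both sides, with Mcm2 (1494, 1713 and 2374 against 2132, 3322 and 4432 counts) and Mcm6 (1068, 2168 and 1196 against 2428, 4052 and 3644) above sham in CPM and Mcm3 (1691, 1197 and 2416 against 402, 0 and 331) and Mcm7 (814, 942 and 2172 against 110, 33 and 0) below. These proteins act in a single ring of fixed composition. Of 53 histone genes tested, 3 (5.66%) lay above and 4 (7.55%) below, beside 2.27% and 11.6% over all genes, and 2 (3.77%) had an unadjusted p under 0.05 with lower values, beside 7.43%. For histones plain library totals gave 1 (1.89%) above and 5 (9.43%) below, beside 1.24% and 13.8%. H4c2 had 2527, 1 and 10444 counts against 33379, 20201 and 9693, and H2bc6 291, 11549 and 29472 against 28482, 39959 and 39429, while H3c3 had 3369, 4244 and 6359 against 1, 4 and 1212 and H2bc3 7217, 23819 and 18370 against 1240, 0 and 7. H4c2 and H2bc6 lay above sham in CPM, though not in raw counts. Histone genes are near-identical copies, so their reads may have been split or dropped by the counting.

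Early response genes were sparse. Of 16 genes 9 were tested, and Fos, an AP-1 subunit, was the 1 with an unadjusted p under 0.05, at 0 counts in all 3 sham libraries and 28, 304 and 0 in NTY (1 of 9 with higher values, beside 0.722% over all genes). Leaving out a library gave from 1 to 3 genes with higher values, the 3 being without NTY replicate 2. Egr1 had 2815, 509 and 1208 counts against 1603, 10610 and 149, and Dusp1, a MAP kinase phosphatase, 156, 5 and 2915 against 48, 0 and 10748. Both of these overlapped between the groups. The 16 genes of the list summed to 434, 32.5 and 240 CPM in sham and 875, 1205 and 462 CPM in NTY, without overlap. Among 21 genes of DNA damage and apoptosis tested, 0 had an unadjusted p under 0.05, 0 lay above sham and 2 (9.52%) below, beside 2.27% and 11.6% over all genes. Csf1r, the receptor of CSF1 on macrophages, had 0 counts in all sham libraries and 778, 7 and 345 in NTY (unadjusted p = 0.00832, adjusted p = 0.5, edgeR), and the myeloid gene Lyz2 had 0, 5 and 83 counts in sham and 44, 0 and 166 in NTY. Of the immune and blood list of 10 genes, 2 were tested. The macrophage genes Adgre1 and Cd68 had at most 17 and 8 counts in any library and the leukocyte gene Ptprc was at 0 throughout.

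The libraries of the same group were unlike each other. Across the tested genes, which are not independent replicates, Spearman's rho of log2(CPM + 1) was 0.75 between sham replicates 1 and 3 and 0.57 for both pairs with sham replicate 2. Within NTY it was 0.39, 0.42 and 0.43, against 0.42 to 0.56 between NTY and sham libraries. The values within NTY lay at the low end of those between the groups.

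The effect of NTY in primary follicles was set against that in primordial follicles in the same fit. The test of the difference passed for 1 of 10522 genes (0.0095%), the histone gene H2ac4, with a difference of -12.53 on the log2 scale (adjusted p = 0.0238, edgeR). In primary follicles H2ac4 had 3115, 15407 and 2279 counts in sham and 9238, 39332 and 18871 in NTY, which overlapped (log2 fold change 2.03, adjusted p = 0.842, edgeR). At an unadjusted p under 0.05, 76 genes were higher and 782 lower in NTY in primary follicles, whereas 804 were higher and 341 lower in primordial follicles. The 2 comparisons share no library, and the values of a few genes are set side by side. Smarcd3 had a log2 fold change of -12.00 ± 4.17 (SE) in primary and 8.53 in primordial follicles, Mef2c of 10.89 and 2.63, Fbn1 of 3.36 and -0.12, and for none of these did the difference between the stages pass the test.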

How the data were processed

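Counts per gene (whole numbers, not normalized) for 53715 genes and TPM for 28252 of them were deposited by the authors. The submitters' processing notes name Trim Galore 0.4.1, TopHat2, featureCounts and the genome mm10, without the strand setting or the handling of reads matching several genes, which can shift counts between overlapping or near-identical genes. Symbols came from the deposited TPM table, and coordinates, biotypes and lengths from GENCODE M21 (GRCm38).

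Groups followed the labels. The 12 microdissected libraries were fitted in edgeR 4.0.16 under R 4.3.3 by quasi-likelihood (robust, TMM, filterByExpr by group, no replicate block), and NTY was tested against sham within primary follicles with Benjamini-Hochberg adjustment. CPM used TMM library sizes. Genes detected were compared by exact two-sided permutation. The 3-count floor covers counting error only, and PCR reads without molecular identifiers are not independent molecules. Alternatives used RLE, DESeq2 1.42.0, limma 3.58.1 (voom, or log2(TPM + 1) where 3 or more libraries had a TPM of 1 or higher), other filters, the 6 libraries alone, a replicate block, NTY replicates 2 and 3 summed, and each library left out. Simulated data with 200 changed genes were run through the main edgeR fit, DESeq2 without its Cook filter, voom and limma on TPM. This was done for NTY against sham in primary follicles only, and the other alternatives were not simulated. Summaries were made in Python 3.11.15 with pandas 2.3.3, scipy 1.17.1 and numpy 2.4.6.

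Named genes were those of the lists, the 12 protein-coding genes per direction with the smallest p among those averaging 10 CPM or more whose groups did not overlap, up to 10 genes per direction with at least 100 counts in one group and at most 3 in the other, and 6 per direction with at least 100 counts in all 6 libraries. The libraries, lists and rules were chosen with earlier results of these data known. The published protocol supplied with the series describes ovary culture, not these libraries.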

Additional observations from a re-analysis of the deposited data

Results flagged for a closer look

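H2ac4 was picked out because the effect of NTY differed between primary and primordial follicles by -12.53 on the log2 scale (adjusted p = 0.0238, edgeR). In primordial follicles the sham libraries had 2, 3 and 1 of its counts, the NTY libraries 2031, 5597 and 115805, and it was higher in NTY on average in both stages. With its Cook filter DESeq2 gave no adjusted p for H2ac4. Otherwise the adjusted p ranged from 5.83e-05 (DESeq2 without that filter) to 0.411 (limma on log2(TPM + 1)). It was 0.18 without primordial NTY replicate 3, 0.0659 without primary NTY replicate 3, 0.0529 with primary NTY replicates 2 and 3 summed, 0.0665 with plain library totals and 0.138 with voom. The difference kept its sign in all of these. H2ac4 is one of many near-identical histone genes and shares exons with Gm44484 on the opposite strand, and the part of read assignment was not tested.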

How the results depend on the processing

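For NTY against sham in primary follicles, 0 genes passed with edgeR in the main test, with RLE, with plain library totals and with either filter. The number was also 0 with the 6 libraries alone, with NTY replicates 2 and 3 summed and when any of the 6 was left out. Requiring a log2 fold change of at least 1 can only remove genes, so its 0 was fixed by the main test. DESeq2 called 693 genes, 473 with its Cook filter, voom 67 and limma on log2(TPM + 1) 3, and the cause was not tested. The median log2 fold change over all genes was -0.10 with TMM, 0.19 with RLE, -0.56 with plain library totals and -1.65 with voom.

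With the replicate number as a block 0 genes passed, with 678 at an unadjusted p under 0.05 (37 higher, 641 lower). The difference in genes detected was again -3312, which pairing cannot change. By sign flips its exact p was 0.25, the smallest two-sided value that 3 pairs allow. The labels do not say whether replicate numbers pair the samples. Same-numbered libraries had correlations of deviations of -0.061, 0.000217 and 0.0211. With 3 libraries per group these values cannot decide whether samples were paired.

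Leaving out a library gave differences in genes detected from -4242 to -2492, numbers of genes above sham from 363 to 803 and below sham from 1509 to 2375, from 103 to 235 genes held by sham alone and from 0 to 4 held by NTY alone. Apart from the genes detected, these numbers can only stay or rise when a library is left out. Plain library totals gave 130 genes above sham, and a minimum of 10 counts gave 197 and 1. These settings on overlap and presence, and plain library totals, were chosen after seeing the data. For the difference between the stages 1 gene passed, 1216 with DESeq2, 11 with any count as the filter, and 0 to 8 without a library, the 0 being without primordial NTY replicate 3.

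Over 642 refits of 42 named genes 0 changed sign and 47 passed the threshold. Most of these genes were chosen by values of the same contrast, which fixes much of their sign, so this is no sign of stability. List medians moved by more than the spread between libraries in 44 of 352 refits.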

Other observations

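At 100 counts 7 genes were held by all 3 NTY libraries and by no sham library, without being absent from sham. They were Srp9, a signal recognition particle protein (35, 0 and 71 counts in sham, 2145, 4161 and 152 in NTY), Islr, a secreted protein of mesenchyme (0, 0 and 30 against 595, 597 and 149), Pla2g15, a lysosomal phospholipase (62, 0 and 8 against 1129, 199 and 1906), Zscan2 (0, 0 and 45 against 263, 107 and 494), Zbtb38 (67, 94 and 44 against 131, 249 and 113), the pseudogene Rps2-ps10 (27, 63 and 39 against 203, 137 and 115) and Mef2c. Apart from Mef2c, whose unadjusted p was 0.00335, the unadjusted p (edgeR) ranged from 0.0611 for Srp9 to 0.559 for Zbtb38. The 6 were chosen after their values were seen.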
